A study of Mus musculus with 4 samples.

Results

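The SNAI, TWIST and ZEB genes encode transcription factors that hold cells in a mesenchymal state. The group followed here comprised Snai1, Snai2, Snai3, Twist1, Twist2, Zeb1 and Zeb2. It was formed by name, and every non-control probe that carried one of these 7 names was taken, which gave 9 of the 55681 probes and 7 of the 35080 genes or identifiers on the array. Expression was measured in mouse primary osteoblasts grown in 10% serum and treated for 72 h. The untreated culture received neither protein, another received LOXL2 at 4 µg/ml, another BMP2 at 200 ng/ml, and the last one both proteins at those doses. All 4 cultures carry the source name of primary osteoblasts, and the cell type label reads pre-osteoblasts for those without BMP2 and osteoblasts for those with it. Each treatment was measured on 1 single-colour array, so no treatment was replicated, and whether separate preparations of cells were used is not stated in the labels. The stated purpose of the study was to find regulators of osteoblast differentiation under BMP2.

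SNAI and ZEB proteins are zinc finger repressors that bind E-box sequences in the promoters of epithelial genes, the best known being the E-cadherin gene Cdh1, and recruit chromatin-modifying partners there. TWIST proteins are basic helix-loop-helix factors that pair with E proteins. In the skeleton they are known to restrain osteoblast differentiation, in part by binding the DNA-binding domain of RUNX2. ZEB2 binds SMAD proteins, the mediators of BMP and TGF-beta signals, and BMP2 is a bone-inducing member of that ligand family. LOXL2 belongs to the lysyl oxidases, secreted enzymes that join matrix collagens, and has been reported as a partner of the SNAI1 protein.

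The E-box core that SNAI and ZEB proteins bind is CAGGTG, which reads CACCTG on the opposite strand. It was searched on both strands in the RefSeq promoter windows of GRCm38.p6, which run from 250 bases before to 50 bases after a gene's start. The table held 32851 windows, and 20.2% of them contained the core. Windows were found for 4 of the 7 genes, namely Snai1, Twist1, Twist2 and Zeb2, with 7 windows in all, and 1 of these, that of Snai1, contained the core. In a list of epithelial genes described as targets of SNAI and ZEB repression, 16 of 22 windows did (72.7%). These belonged to 13 of the 16 genes with a window, where 6098 of 27025 genes in the whole table had the core. Several windows can belong to 1 gene, so they are not independent. Whether the core itself was a reason to describe these genes as targets was not examined, so the share is no test of repression. The 150 bases before the start of Snai1 and of 4 epithelial genes are shown as examples of how the core is placed, with the core in capitals, on the strand of the gene and in the 5′ to 3′ direction.
Snai1: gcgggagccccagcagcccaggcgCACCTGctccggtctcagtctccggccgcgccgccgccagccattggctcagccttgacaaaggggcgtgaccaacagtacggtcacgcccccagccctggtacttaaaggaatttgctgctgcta
Cldn7: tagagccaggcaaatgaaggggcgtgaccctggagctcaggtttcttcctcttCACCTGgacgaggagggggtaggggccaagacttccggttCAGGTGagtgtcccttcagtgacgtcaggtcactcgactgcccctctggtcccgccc
Crb3: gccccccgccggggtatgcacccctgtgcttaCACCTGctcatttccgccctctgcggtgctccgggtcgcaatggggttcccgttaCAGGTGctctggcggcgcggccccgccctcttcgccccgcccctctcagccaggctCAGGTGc
Epcam: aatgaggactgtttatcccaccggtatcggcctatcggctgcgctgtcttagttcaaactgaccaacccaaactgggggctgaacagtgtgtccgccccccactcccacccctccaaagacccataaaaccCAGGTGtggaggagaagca
Muc1: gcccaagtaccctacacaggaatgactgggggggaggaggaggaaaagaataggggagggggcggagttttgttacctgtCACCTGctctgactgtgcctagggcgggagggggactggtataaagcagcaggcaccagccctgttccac

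The stretch printed for Snai1 (chr2:167538045-167538194, plus strand) held the core 126 bases before the start, the only one in its window. That of Cldn7 (chr11:69965271-69965420, plus strand) held both cores of its window, 97 and 57 bases before the start. That of Crb3 (chr17:57062051-57062200, plus strand) held the core 118, 63 and 7 bases before the start, and its window had 1 more after the start. The Epcam window held the core 187 and 19 bases before the start, and the latter lies in the printed stretch (chr17:87635829-87635978, plus strand). The Muc1 window held it 234 and 70 bases before the start, and the latter lies in the printed stretch (chr3:89228906-89229055, plus strand). Cldn7 encodes a tight junction claudin, Crb3 a polarity protein, Epcam an epithelial adhesion molecule and Muc1 a membrane mucin. GGCGCC, a palindromic motif bound by BMP-activated SMAD proteins, was found in 0 of the 7 windows of the repressor genes and in 11.9% of all windows. A match is a description of the letters in a window and not a binding site.

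The arrays were alike in depth, with 60.4% to 62.2% of the 59305 non-control spots well above background and no saturated spot. Over probes printed on 10 spots, the log2 signal had a median standard deviation of 0.0638 to 0.0669, which gives a standard deviation of 0.0919 for a difference between 2 single spots and does not cover variation between cultures. Every probe of the 7 genes was printed as 1 spot. Levels are given as the scanner's processed intensity and as log2 of it relative to the 75th percentile of the array. Of 5 osteoblast markers, Col1a1, Bglap3, Phex and Spp1 were well above background on all 4 arrays, and the osteocyte gene Dmp1 was so on the array with both proteins alone. An additive model of BMP2 and LOXL2 (limma, 1 residual degree of freedom, Benjamini-Hochberg adjustment over 24048 genes, threshold 0.05) gave the tests. Its BMP2 effect compares 2 arrays with BMP2 against 2 without it. The residual is the interaction of BMP2 and LOXL2, so standard errors, intervals and p-values do not cover variation between cultures.

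Under BMP2, Snai2 rose, Twist1 and Zeb1 fell, and the changes of Snai1, Twist2 and Zeb2 did not pass the test. Snai2 was 1.6-fold higher, Zeb1 1.64-fold lower and Twist1 1.42-fold lower with BMP2. Thus 3 of the 6 genes measured were called, 1 upwards and 2 downwards. Among all genes tested 20.3% were called, 10.3% upwards and 9.96% downwards. Without a filter on dim probes none of the 3 calls passed (limma adjusted p = 0.0938 for Snai2 and Zeb1 and 0.109 for Twist1), and no gene at all was called. The 6 genes were well above background on all 4 arrays, and Snai3 was above it on none. In RNA from a whole culture, fewer cells that express a gene and less RNA per cell cannot be told apart.

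**Figure D1:**
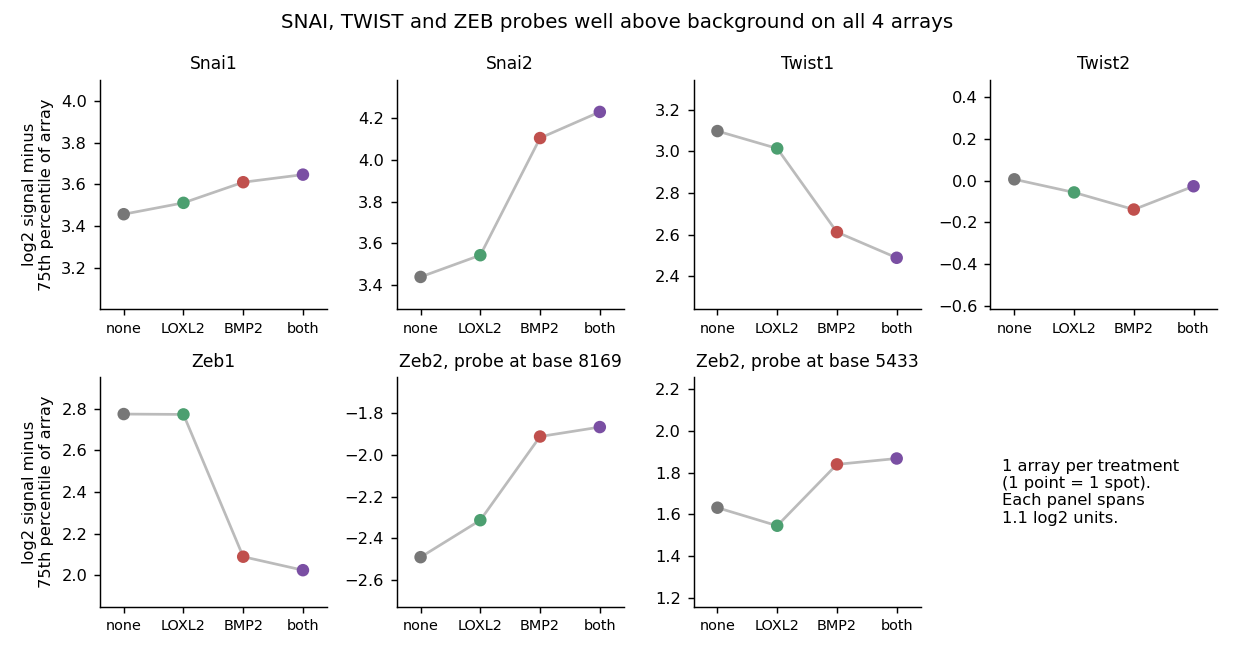
Level of each probe of the SNAI, TWIST and ZEB genes that was well above background on the 4 arrays. The y axis is the log2 processed signal minus the 75th percentile of the array, the x axis is the treatment, each point is 1 spot on 1 array and each panel spans the same range. Snai2 is higher, and Twist1 and Zeb1 are lower, on both arrays with BMP2 than on both without it.

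SNAI1, the founding member of the family in mammals, represses Cdh1 during gastrulation and in carcinoma cells. Snai1 measured 7804 in intensity without treatment, 8255 after LOXL2, 8861 after BMP2 and 9307 after both. The 4 values lay close together, with those under BMP2 above those without it. The BMP2 difference was 0.15 on the log2 scale without LOXL2 and 0.14 with it. The fitted change was 0.14 ± 0.05 (SE, limma adjusted p = 0.157), with a 95% interval from -0.03 to 0.32. A change of this size or larger was fitted for 61.7% of all genes.

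SNAI2, also called SLUG, is the SNAI protein of neural crest and of many mesenchymal tissues. The intensity of Snai2 was 7705 untreated, 8436 with LOXL2, 12480 with BMP2 and 13940 with both. The arrays with BMP2 stood clear of those without it. The BMP2 difference was 0.67 without LOXL2 and 0.69 with it. The fitted rise was 0.68 ± 0.05 (limma adjusted p = 0.0268), and its 95% interval ran from 1.41-fold to 1.81-fold. Across all genes, 11.7% had a fitted BMP2 change at least as large in either direction.

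SNAI3 is the least studied of the 3 SNAI proteins and is known from skeletal muscle and thymus. The intensity of Snai3 was 5.42 untreated, 2.74 with LOXL2, 2.98 with BMP2 and 3.67 with both, where the dimmest spots called well above background measured 12.9 to 14.6. It was not well above background on any array, so these values have no order and the gene entered no test.

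TWIST1 restrains osteoblasts, and loss of a copy leads to early fusion of the skull sutures in mice and humans. The intensity of Twist1 was 6078 untreated, 5843 with LOXL2, 4434 with BMP2 and 4171 with both. Both values under BMP2 lay below both values without it. The BMP2 difference was -0.48 without LOXL2 and -0.52 with it. The fitted fall was 0.50 ± 0.05 (limma adjusted p = 0.0344), and the 95% interval of the log2 change ran from -0.68 to -0.32. A change at least as large was fitted for 18.2% of genes.

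TWIST2, also called DERMO1, is close to TWIST1 in sequence and restrains osteoblasts later in development. The intensity of Twist2 was 713.4 untreated, 695.6 with LOXL2, 658.7 with BMP2 and 728.8 with both. The ranges with and without BMP2 overlapped. The BMP2 difference was -0.14 without LOXL2 and 0.03 with it, so the pairs of arrays pointed in opposite directions, and that difference has no test. The fitted change was -0.06 ± 0.07 (limma adjusted p = 0.602), with a 95% interval from -0.31 to 0.19. The difference between the changes of the paralogs was not tested.

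ZEB1 represses Cdh1 and the microRNA-200 family, and its loss in mice causes skeletal defects. The intensity of Zeb1 was 4860 untreated, 4944 with LOXL2, 3088 with BMP2 and 3024 with both. The arrays with BMP2 stood clear below those without it, and the values within each pair were close. The BMP2 difference was -0.68 without LOXL2 and -0.75 with it. The fitted fall was 0.72 ± 0.06 (limma adjusted p = 0.0268), and the 95% interval of the ratio with BMP2 to without ran from 0.535 to 0.693. A change at least as large was fitted for 10.8% of genes.

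ZEB2, also called SIP1, was named for its binding to SMAD proteins. The gene had 3 probes, and they did not give the same values. The probe that begins at base 5433 of its transcript, which had the highest mean and stood for the gene in the fit, measured 2202 untreated, 2112 with LOXL2, 2596 with BMP2 and 2711 with both. The probe at base 8169 of the same transcript measured 126.5, 145.6, 192.8 and 203.7 in that order. On both probes the arrays with BMP2 lay above those without it. The BMP2 differences were 0.21 and 0.32 on the former probe, without and with LOXL2, and 0.58 and 0.45 on the latter. The fitted change was 0.27 ± 0.06 (limma adjusted p = 0.0845) for the gene, with a 95% interval from 1.04-fold to 1.39-fold before adjustment. With every probe as a separate row, the probe at base 8169 had a fitted change of 0.51 ± 0.07 (limma adjusted p = 0.0542). Neither passed the test. The call of Zeb2 depended on the settings and was made under normexp background correction (adjusted p = 0.0259), under trend and robust settings (adjusted p = 0.0031) and with LOXL2 left out of the model (adjusted p = 0.0444). The last probe, designed on an Ensembl transcript near its 5′ end, measured 6.90 to 11.6 and was not well above background on any array.

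**Figure D2:**
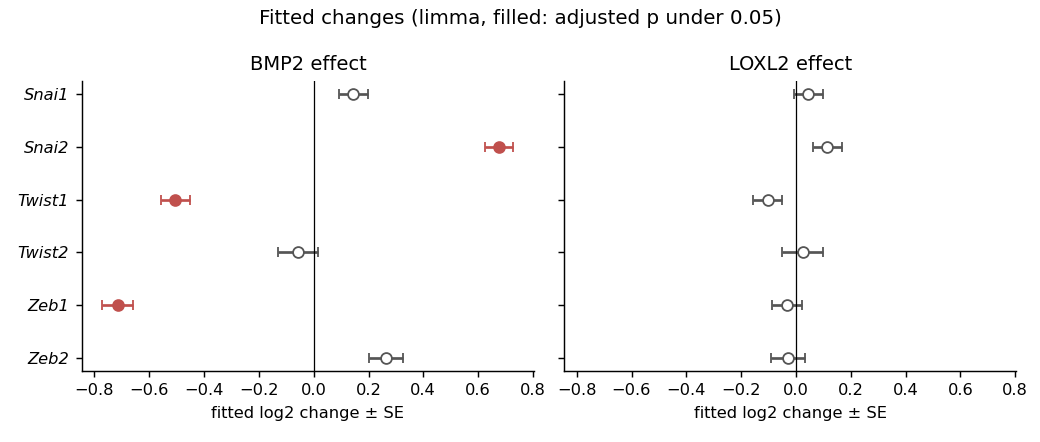
Fitted log2 change of each measured gene with BMP2 (left) and with LOXL2 (right), with the standard error from limma as bars and filled points for an adjusted p under 0.05. The BMP2 changes run from -0.72 for Zeb1 to 0.68 for Snai2, and the LOXL2 changes from -0.10 for Twist1 to 0.11 for Snai2.

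The first 30 bases of the probes behind the called changes of Snai2 and Twist1, and of both measured Zeb2 probes, are given so that the measured stretch can be found in any transcript.
Snai2: gtgaggtacggttaatagccacgcctatat
Twist1: atggtaacaatcagaggaattttaacacct
Zeb2, probe at base 5433: ctgtattttcgactgaaaattccactttct
Zeb2, probe at base 8169: tacgtgggggaaaatatatgtgaaagcaat

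All probes were 60 bases long, and their mm9 positions were given by the scanner files. The probe of Snai1 lies at chr2:167368073-167368132 (plus strand), that of Snai2 at chr16:14709361-14709420 (plus), that of Snai3 at chr8:124980233-124980292 (minus), that of Twist1 at chr12:34644411-34644470 (plus), that of Twist2 at chr1:93744519-93744577 (plus) and that of Zeb1 at chr18:5774613-5774672 (plus). The Zeb2 probe at base 5433 lies at chr2:44842774-44842833, the one at base 8169 at chr2:44840038-44840097 and the one on the Ensembl transcript at chr2:44965914-44965973, all on the minus strand. Exon and UTR annotation was not used here.

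None of the 6 genes passed the test for LOXL2. The fitted LOXL2 change was 0.05 ± 0.05 for Snai1, 0.11 ± 0.05 for Snai2, -0.10 ± 0.05 for Twist1, 0.02 ± 0.07 for Twist2, -0.03 ± 0.06 for Zeb1 and -0.03 ± 0.06 for Zeb2. Their limma adjusted p-values ran from 0.791 for Snai2 to 0.956 for Twist2. For Snai1, the reported LOXL2 partner, the 95% interval of the ratio with LOXL2 to without was 0.913 to 1.17. For Snai2 it was 0.958 to 1.22 and for Twist1 0.822 to 1.05.

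Over all genes tested, the LOXL2 effect was called for 0 of 24048 genes (0%) in limma, with 1486 genes at an unadjusted p under 0.05. With trend and robust settings limma called 14 genes. Snai2 was higher with LOXL2 in both pairs of arrays, by 0.10 without BMP2 and 0.13 with it, and Twist1 differed by -0.08 and -0.12. These values lie within the central 90% of all genes, which ran from -0.33 to 0.35 without BMP2 and from -0.33 to 0.32 with it.

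The BMP2 differences of the 6 genes were alike with and without LOXL2 in most cases. The difference between them, with LOXL2 minus without, was -0.02 for Snai1, 0.02 for Snai2, -0.04 for Twist1, 0.17 for Twist2, -0.06 for Zeb1 and 0.11 for Zeb2. In Twist2, the gene with the largest of these values, 33.6% of all genes differed at least as much. The interaction has no test, since a model with that term uses up all 4 arrays. In the additive fit these values form the residual, so small ones also make the standard errors and p-values above small. Alike BMP2 differences are thus no evidence apart from those p-values. The central 90% of all genes ran from -0.85 to 0.76 for the BMP2 difference without LOXL2 and from -0.85 to 0.73 with it, so Snai2 and Zeb1 lay inside that range in both pairs.

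**Figure D3:**
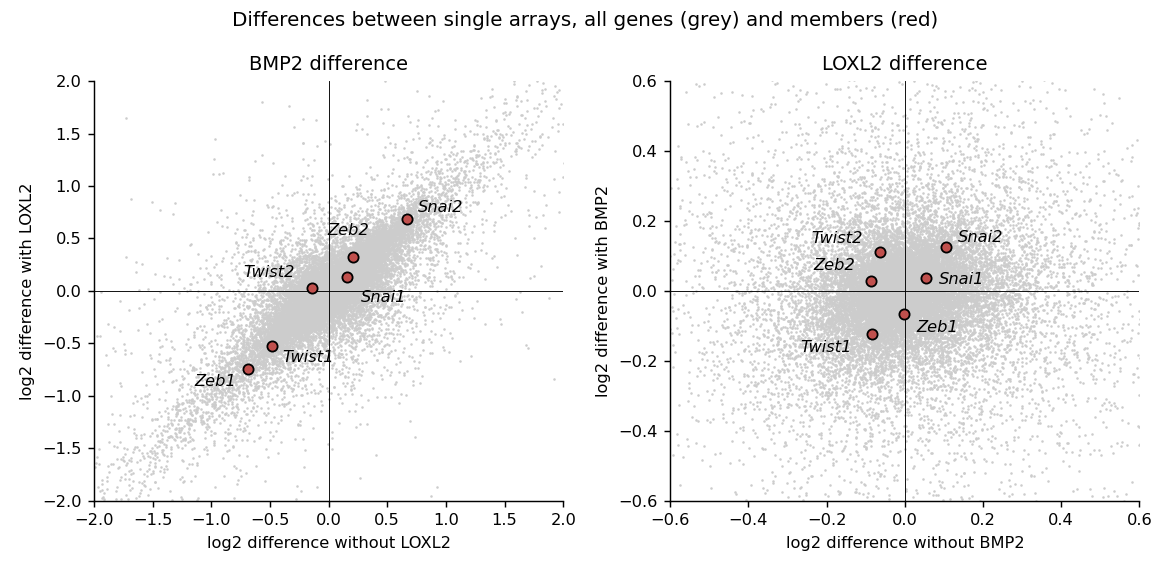
Log2 differences between single arrays for all 24048 genes (grey) and for the 6 measured SNAI, TWIST and ZEB genes (red), with the BMP2 difference without LOXL2 against that with LOXL2 on the left and the LOXL2 difference without BMP2 against that with BMP2 on the right. Snai2 lies at 0.67 and 0.69 and Zeb1 at -0.68 and -0.75 on the left, and points beyond the axis limits are not drawn.

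SNAI, TWIST and ZEB factors act through partner proteins. Of 15 corepressors and chromatin partners, 0 rose and 1 fell under BMP2, with a median change of -0.02 against 0.02 over all genes. Among all genes tested 20.3% were called, 10.3% upwards and 9.96% downwards. With trend and robust settings 4 of the 15 rose and 3 fell, where 10391 of all 24048 genes were called. Ajuba, a LIM protein that links SNAI to other repressors, fell by 0.42 ± 0.06 (limma adjusted p = 0.0454). The fitted changes of the corepressors Ctbp1 and Ctbp2, which ZEB proteins recruit, were 0.20 and 0.15, that of the histone demethylase Kdm1a was -0.02, and those of the histone deacetylases Hdac1 and Hdac2 were -0.07 and -0.25. Their limma adjusted p-values ran from 0.0737 for Hdac2 to 0.756 for Kdm1a, and Ctbp1 passed with normexp (adjusted p = 0.0442) and with trend and robust settings (0.00122).

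In the list of enzymes that phosphorylate, ubiquitinate or stabilise SNAI proteins, 0 of 12 rose and 1 fell. The shares over all genes were 10.3% upwards and 9.96% downwards. The kinase Prkd1, which phosphorylates SNAI1, fell by 0.37 ± 0.05 (limma adjusted p = 0.047). Gsk3b, the kinase that marks SNAI1 for degradation, had a fitted change of 0.25 ± 0.06 (limma adjusted p = 0.0777), and passed with normexp (0.0244), with trend and robust settings (0.00118) and with LOXL2 left out of the model (0.0382). The calls of Ajuba and Prkd1 were lost when every probe was a separate row, and that of Prkd1 also with median scaling.

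The list of basic helix-loop-helix partners held E proteins, which pair with TWIST, ID proteins, which sequester E proteins, and the related Hand1 and Hand2. All 7 E protein and ID genes were measured, and 1 rose and 1 fell, where 10.3% of all genes rose and 9.96% fell. With trend and robust settings 3 rose and 2 fell, where 10391 of all 24048 genes were called. Hand1 and Hand2 did not pass the filter on dim probes. Id1, a direct BMP target, rose by 0.78 ± 0.10 (limma adjusted p = 0.0416), and Id4 fell by 0.86 ± 0.06 (adjusted p = 0.0255). The call of Id1 was lost with every probe as a separate row. The E protein genes Tcf3, Tcf4 and Tcf12 had fitted changes of -0.19, -0.16 and 0.32, with limma adjusted p-values of 0.12, 0.402 and 0.061. Tcf12 passed under 5 alternatives, with adjusted p-values from 0.000699 to 0.0485. The 2 probes of Tcf12 differed, with -0.05 and 0.32.

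Among the 5 lysyl oxidases, the family of the added enzyme, 1 rose and 2 fell under BMP2. Over all genes 10.3% rose and 9.96% fell. Lox fell by 1.03 ± 0.06 and Loxl1 by 0.51 ± 0.05, and Loxl4 rose by 0.42 ± 0.05 (limma adjusted p = 0.0239, 0.034 and 0.0414). The call of Loxl4 was lost with LOXL2 left out of the model and with every probe as a separate row. The cells' own Loxl2 had a fitted BMP2 change of -0.16 ± 0.06 (limma adjusted p = 0.169). Over its 3 probes the fitted change ranged between -0.43 and -0.16. Loxl3, the relative that has also been tied to SNAI1, had 0.11 ± 0.06 (adjusted p = 0.272). Loxl4 was higher with LOXL2 in both pairs, by 0.26 without BMP2 and 0.22 with it, and its fitted LOXL2 change of 0.24 had a limma adjusted p of 0.789.

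Epithelial genes known as targets of SNAI and ZEB repression were in part below background in these cells. Of 27 such genes, 13 were well above background on all 4 arrays, and 9 passed the filter on no probe and were not well above background on any array, among them Crb3, Epcam and Muc1, whose promoters are printed above. The other 18 were measured, and under BMP2 1 of them rose and 6 fell, with a median change of -0.27. Over all genes 10.3% rose and 9.96% fell, with a median change of 0.02. Among the 13 above background on all 4 arrays, fitted alone with the other genes of that kind, 0 rose and 5 fell, with a median of -0.18. In that fit 3499 of 22621 genes rose and 2888 fell. Cdh1, the classical target, had log2 levels of -4.63 untreated, -4.54 with LOXL2, -6.22 with BMP2 and -5.75 with both, and only the array with BMP2 alone left it below background. It fell by 1.40 ± 0.13 (limma adjusted p = 0.0303), a change that rests on 1 array above background on the BMP2 side and did not pass in the deposited value table (-1.12, adjusted p = 0.0991).

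Cdh3, which encodes P-cadherin, had log2 levels of 0.29, 0.32, -0.88 and -1.09 in the same order and fell by 1.29 ± 0.09 (limma adjusted p = 0.026). Cldn1, a claudin of tight junctions, was above background on both arrays without BMP2, with a mean of -3.92, and on neither with it, with a measured mean of -6.72. It was at least 3.31-fold lower with BMP2. The fitted change of -2.80 (limma adjusted p = 0.0243) uses the signals below background, so its p-value does not test that bound. Cldn1 passed the filter on dim probes only through the arrays without BMP2. A fall was thus the only change it could show, and the call is no support for one. The splicing factor Esrp2 fell by 1.16, the keratin Krt19 by 1.1 and the desmosomal plakophilin Pkp2 by 0.63, with limma adjusted p-values from 0.0206 to 0.0299. Dsp, a desmosome protein below background untreated, rose by 1.90 ± 0.07 (adjusted p = 0.0206), and its levels on the 4 arrays were -6.94, -6.39, -5.11 and -4.41. The size of that rise rests on dim signals, the untreated one being below background, and no bound was taken for it. Cldn7, whose promoter held the E-box core at 2 places, had a fitted change of -0.06 ± 0.05 (adjusted p = 0.422). Esrp2, Krt19, Pkp2 and Cldn7 were chosen for mention after their values were seen.

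Mesenchymal genes did not move one way. Of 16 listed genes 15 were measured, 2 rose and 5 fell under BMP2, with a median change of -0.18. Among all genes 10.3% rose and 9.96% fell. With normexp 3 of the list rose and 7 fell, where 9085 of all 24048 genes were called. With trend and robust settings 5 rose and 9 fell, where 10391 were called. The smooth muscle genes Acta2 and Tagln fell by 1.03 ± 0.05 each and the calcium-binding protein S100a4 by 0.80 ± 0.06, and Lef1, a Wnt effector, rose by 2.46 ± 0.05 (limma adjusted p from 0.0206 to 0.0262). Of the 13 windows of these genes in the promoter table, 2 held the E-box core (15.4%).

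Osteoblast genes listed as restrained by TWIST proteins, directly or through RUNX2, rose in most cases. Whether the fall of Twist1 had a part in this was not tested. Under BMP2 8 of 12 rose and 0 fell, with a median change of 1.0, where 10.3% of all genes rose and 9.96% fell. Osteocalcin rose most in this list, by 3.60 ± 0.13 for Bglap and 3.47 ± 0.11 for its close copy Bglap2, from which its signal may not be fully separate. Bone sialoprotein, Ibsp, rose by 2.53 ± 0.16 and the transcription factor Sp7 by 2.23 ± 0.05 (limma adjusted p from 0.0206 to 0.0243 for these 4 genes). Runx2 had a fitted change of 0.08 ± 0.05 (adjusted p = 0.366) on the probe with the highest mean. Over its 3 probes the fitted change ranged between 0.08 and 0.73.

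Of the 8 SMAD genes, 3 rose and 0 fell, where 10.3% of all genes rose and 9.96% fell. Smad9, a BMP-activated SMAD, rose by 1.21 ± 0.07, and the inhibitory Smad6 and Smad7 by 1.08 ± 0.11 and 0.62 ± 0.05 (limma adjusted p from 0.0227 to 0.0331). Among 12 inducers of SNAI, TWIST and ZEB genes, 2 rose and 2 fell, against the same shares over all genes. The ligands Tgfb1 and Tgfb2 rose by 1.48 ± 0.05 and 0.96 ± 0.05, while the ligand Tgfb3 fell by 1.11 ± 0.05 and the receptor Tgfbr2 by 1.16 ± 0.07 (limma adjusted p from 0.0206 to 0.0243).

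**Figure D4:**
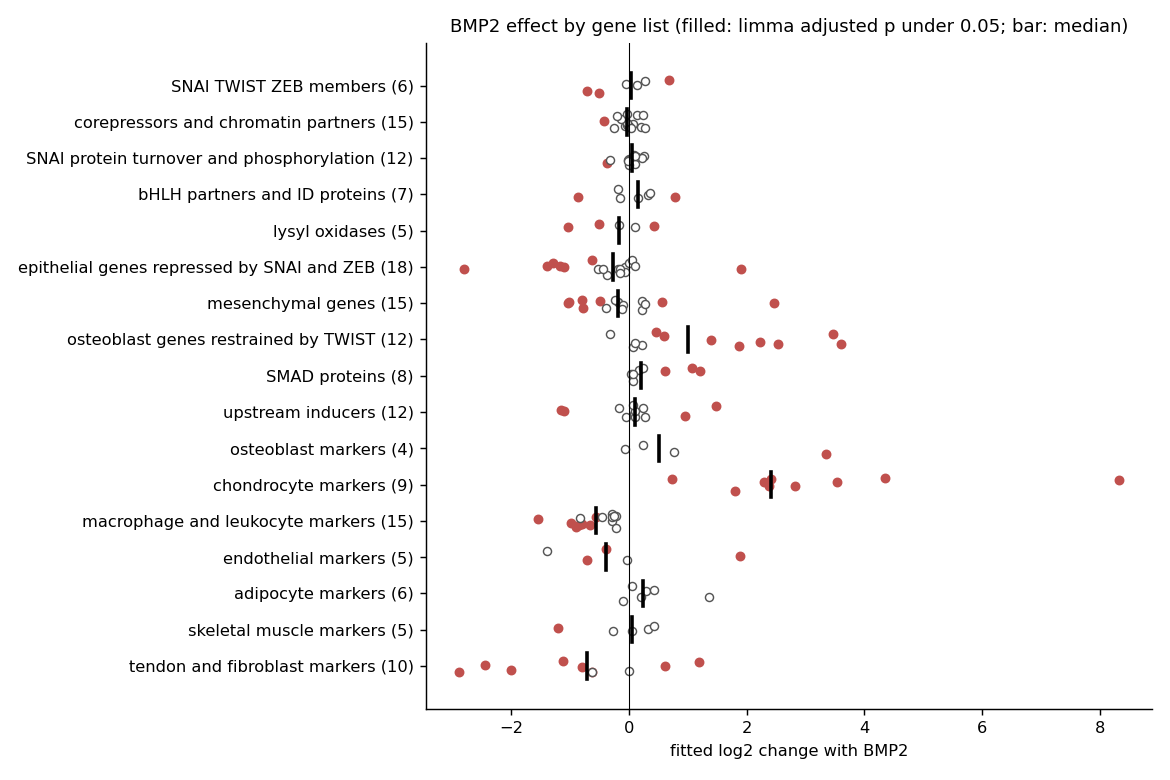
Fitted log2 change with BMP2 for each measured gene (points, filled where the limma adjusted p is under 0.05) in each list, with the number measured in brackets and the list median as a black bar. The SNAI, TWIST and ZEB genes lie between -0.72 and 0.68, the epithelial list has a median of -0.27 and the osteoblast genes restrained by TWIST one of 1.0.

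Markers of other cell types moved with BMP2 on the same arrays, where 10.3% of all genes rose and 9.96% fell. Chondrocyte markers rose for 9 of 9 genes, with a median change of 2.42 and mean log2 levels of -1.10 untreated, -0.84 with LOXL2, 1.78 with BMP2 and 2.66 with both. Among them Matn1 passed the filter only through the arrays with BMP2, and of the 6 markers above background on all 4 arrays 6 rose. The mean levels without BMP2 include signals below background, those of Matn1 on both arrays and of Col10a1 and Matn3 on the untreated one. Macrophage and leukocyte markers fell for 7 of 15 and rose for 0, with a median of -0.55 and a mean log2 level of -1.02 untreated, -1.10 with LOXL2, -1.53 with BMP2 and -1.80 with both. Tendon and fibroblast markers fell for 6 of 10 and rose for 2, with a median of -0.71 and mean levels of 3.13, 3.13, 2.31 and 2.21. Of 5 endothelial markers measured of 7, 1 rose and 2 fell, of 5 muscle markers measured of 8, 0 rose and 1 fell, and of 6 adipocyte markers 0 were called. Of the leukocyte markers, 14 of 15 were above background on all 4 arrays, and Ptprc, the leukocyte antigen CD45, was so on 3. Of the endothelial markers, 4 of 7 were above it on all 4 arrays, namely Pecam1, Cdh5, Kdr and Vwf, Tek was so on 2, and Tie1 and Emcn on none. Of the muscle markers, 5 of 8 were above it on all 4 arrays, namely Myod1, Myog, Des, Acta1 and Myh3, Pax7 was so on 1, and Myf5 and Ckm on none. The part of these cell types in the changes of Snai2, Twist1, Zeb1 and the epithelial genes was not tested. LOXL2 was called for 0 genes of every list in limma.

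The profiles of the repressor genes over the 4 arrays were set against each other after each was centred on its own mean. Among the 6 genes the smallest Euclidean distance was 0.157 log2 units, between Snai1 and Zeb2. Next came Twist1 and Zeb1 at 0.223 and Snai1 and Twist2 at 0.225. Snai2 and Zeb1 lay farthest apart, at 1.401. The same measure was applied to 15392 genes with a symbol that were well above background on all arrays. The closest to Snai2 were Btg1, Ptprn and Prkg2 (distances 0.0156 to 0.0202), to Twist1 Disp1, Azin2 and Gzmk (0.0107 to 0.0177), and to Zeb1 Gulp1, Gm826 and Atp6v1g3 (0.0162 to 0.0264). These distances were smaller than any between the repressor genes themselves. They are, however, the smallest among 15392 genes, set against the few pairs that 6 genes form. The comparison therefore does not show how alike the repressor genes are. Each profile holds 4 values.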

How the data were processed

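Total RNA of 4 cultures (100 ng each) was labelled with Cy3 and read on Agilent arrays. The deposited scanner files hold an intensity for each spot, which the authors made with Agilent Feature Extraction (version 10.7.3.1 in the submitters' processing notes). Spatial and multiplicative detrending, and surrogate values for dim spots, were switched on, per the file headers. The deposited value table holds a linear intensity per probe and equalled the scanner's processed signal within 0.1% for 99.52% to 99.53% of probes.

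Log2 of the deposited signal was taken, and each array's 75th percentile over non-control spots was subtracted. Outlier spots (109 to 144 per array) were left out. A probe was kept where well above background on at least 2 arrays, and the probe with the highest mean stood for its gene. Symbols came from RefSeq GRCm38.p6 (26762 probes matched). Effects were fitted with limma 3.58.1 in R 4.3.3, two-sided, with 1 residual and 1.72 prior degrees of freedom. The median standard error was 0.0615. The fit was tested on simulated data. Figures were drawn with matplotlib 3.10.9.

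For a gene of the lists with all arrays with, or all without, BMP2 below background, the fold is a lower bound. It is set against the higher of the gene's own signal and the lowest signal well above background on each array. The bounds moved no list median. The genes, lists and tests were chosen with earlier results of these data known. Named were the 7 genes, up to 4 called genes per list by size of change, 15 partners and markers given by name, and the 3 genes most alike in profile. Alternatives were another background correction, 2 other scalings, 2 other filters, other empirical Bayes settings, the value table, separate probes, and LOXL2 left out of the model. As each treatment had 1 array, the 1 residual degree of freedom is the interaction of BMP2 and LOXL2. Standard errors, intervals and p-values therefore measure departure from additivity on these arrays, moderated over all genes. They do not measure variation between cultures.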

Additional observations from a re-analysis of the deposited data

Results flagged for a closer look

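The probe of Twist2 moved in opposite directions in the pairs of arrays. Its BMP2 difference was -0.14 without LOXL2 and 0.03 with LOXL2, and its LOXL2 difference was -0.06 without BMP2 and 0.11 with BMP2. The Zeb2 probe at base 5433 had a LOXL2 difference of -0.09 without BMP2 and 0.03 with BMP2. Each value is a difference between 2 single arrays, and whether the pairs differ was not tested. A difference between 2 single spots has a standard deviation of 0.0919 from spot error alone.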

How the results depend on the processing

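Directions of the fitted BMP2 changes of Snai1, Snai2, Twist1, Twist2, Zeb1 and Zeb2 were the same under all 9 alternatives. Without a filter on dim probes limma called 0 genes for BMP2 among 35077 (9259 at an unadjusted p under 0.05), and the calls of Snai2 (0.68, adjusted p = 0.0938), Zeb1 (-0.72, adjusted p = 0.0938) and Twist1 (-0.50, adjusted p = 0.109) were lost. These 3 calls held under the other 8 alternatives. Against 4876 genes called for BMP2 in the reported fit, normexp background correction gave 9085 and trend and robust settings 10391. Zeb2 passed with normexp (0.25), with trend and robust settings (0.27) and with LOXL2 left out of the model (0.27), and Snai1 passed with trend and robust settings (0.14, adjusted p = 0.0221). For LOXL2, trend and robust settings gave 14 genes against 0. With normexp the BMP2 differences of the Zeb2 probe at base 8169 were 0.41 without LOXL2 and 0.31 with it, against 0.58 and 0.45. Apart from the fit with no filter, the epithelial list had 5 to 8 genes down and 0 to 1 up, the osteoblast genes restrained by TWIST 8 to 9 up and 0 to 1 down, and the leukocyte markers 4 to 12 down. Of the named list genes called for BMP2, 43 lost the call with no filter, 7 with separate probes, and 1 to 2 with quantile normalization, median scaling, the value table or LOXL2 left out. Among named genes not called, Tcf12 gained a call under 5 alternatives, Gsk3b under 3, Tcf3 and Ctbp1 under 2, and Hdac2, Loxl2 and Ctbp2 under 1. No paired analysis was possible because each treatment has 1 array and the labels give no replicate numbers. Leaving out an array leaves no residual degree of freedom, and the differences of the remaining pair are the single-array values in the report. Dim signal limits Snai3, the third Zeb2 probe and part of the epithelial genes.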

Other observations

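Probes within 200000 bases of those of the repressor genes on mm9 were listed, and all those called for BMP2, with 1 more near Zeb2, are given. They were chosen after their values were seen. In the fit with every probe as a separate row, 4061 of all 33983 kept probes were called for BMP2. The share called among these neighbours was not set against that, so the genes named are no result about the regions. The transcript 3110027N22Rik has a probe 4799 bases from the Zeb2 probe at base 5433, on the same strand, with log2 levels of -2.0 untreated, -2.0 with LOXL2, -1.23 with BMP2 and -1.28 with both. Its position lies between the Zeb2 probe at base 5433 and the Zeb2 probe on the Ensembl transcript. Whether its signal is separate from a Zeb2 transcript was not tested. With every probe as a separate row 3110027N22Rik rose under BMP2 by 0.75 ± 0.06 (limma adjusted p = 0.0366). Gm13476, on the opposite strand near the Zeb2 probe on the Ensembl transcript, had a fitted BMP2 change of 0.32 ± 0.08 (adjusted p = 0.103).

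Near Snai1, the transcription factor gene Cebpb rose by 0.95 ± 0.06 with BMP2 (limma adjusted p = 0.0333), its probe lying 147755 bases from that of Snai1. Near Twist2, the class II histone deacetylase Hdac4 rose by 0.77 ± 0.09 (adjusted p = 0.0481), at 85035 bases. Near Snai3, which was itself not above background, the DNA licensing factor Cdt1 rose by 0.88 ± 0.09 and the ion channel Piezo1 by 0.67 ± 0.06 (adjusted p = 0.0416 and 0.0399). Near Twist1, the transcript ENSMUST00000085463 had a fitted BMP2 change of -1.52 ± 0.09 (adjusted p = 0.0324), at 147673 bases. Its log2 levels were -5.26 untreated, -5.67 with LOXL2, -6.90 with BMP2 and -7.07 with both. It was well above background on 2 of the 4 arrays, those without BMP2. It passed the filter on dim probes only through these, so a fall was the only change it could show. The size of that fall rests on signals below background, and no bound was taken for it. Near Zeb1, 1 probe of an unnamed region rose by 0.59 ± 0.06 (adjusted p = 0.0413), at 34616 bases.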
